A study of Saccharomyces cerevisiae with 10 samples.

Results

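The nuclear genes of the mitochondrial respiratory chain and ATP synthase were followed through 10 polyadenylated RNA libraries of budding yeast (Saccharomyces cerevisiae, S288C background). The set holds 34 genes, taken by complex membership and not by their measured values: 4 of complex II, the internal NADH dehydrogenase gene NDI1, 9 of complex III, the cytochrome c gene CYC1, 8 of complex IV, 5 of the F1 part of ATP synthase and 6 of its stalk and membrane part FO. Each table held 6816 rows of a single gene, and 33 of the 34 genes had such a row in all 9 tables. ATP14 shared its row with an overlapping gene and is given apart. In experiment 1 the segregants htl1Δ, npl6Δ, rsc1Δ, rsc2Δ and rtt102Δ, each lacking a subunit of the chromatin remodeller RSC, were compared with a WT segregant after 10 generations in YPD, a rich glucose medium. In experiment 2 an htl1Δ strain and a WT strain, both carrying GALpr-HTL1 (HTL1 under a galactose promoter), were grown to saturation in YPGR, read here as a galactose and raffinose medium. They then had 10 more generations of logarithmic growth in YPD or YPGR. The sample titles of experiment 2 give the 10 generations for the YPD libraries only. All strains came from tetrads of rsc heterozygotes, per the labels. With 1 library for every group there were no replicates, and none of the differences was tested; the values describe these libraries.

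Electrons from NADH enter the yeast chain through single-protein dehydrogenases such as Ndi1, since S. cerevisiae has no complex I, and electrons from succinate enter through complex II. Ubiquinone carries them to complex III (cytochrome bc1), cytochrome c carries them to complex IV (cytochrome c oxidase), and ATP synthase uses the proton gradient they build. Budding yeast ferments glucose and represses these genes while it does so, and the CCAAT-binding Hap2, Hap3, Hap4 and Hap5 complex is known to activate many of them on other carbon sources. RSC moves and evicts nucleosomes, largely at promoters.

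The labels were checked against the deleted genes before use. In experiment 1 HTL1 was at 2.09 FPKM (fragments per kilobase of transcript, scaled to sequencing depth) in htl1Δ and at 293 FPKM in WT, and the other 4 deleted genes were at or below 0.38 FPKM in their own libraries. In experiment 2 the YPD library labelled htl1Δ held HTL1 at 232 FPKM, against 555 FPKM in WT, and the YPGR library held it at 2782 FPKM, against 2973 FPKM in WT. That YPD library also had the a-cell receptor gene STE2 at 600.0 FPKM and MET17 at 152 FPKM, whereas the YPGR library labelled htl1Δ had STE2 at 6.59 FPKM and MET17 listed at 0. In that pair, strain and medium therefore cannot be told apart. In experiment 1 STE2 was at 343 to 746 FPKM in htl1Δ, rsc1Δ, rsc2Δ and rtt102Δ, at 5.05 FPKM in npl6Δ and at 6.29 to 6.6 FPKM in WT. The value for MET17 was 0 in the libraries of htl1Δ, of npl6Δ and of rtt102Δ, and it was 53.5 FPKM in rsc1Δ, 139 FPKM in rsc2Δ and 147 to 155 FPKM in WT. LYS2 was at 0.0521 FPKM in htl1Δ, 0.0506 in rsc1Δ, 0.107 in rsc2Δ and 47.0 in npl6Δ, against 26.6 to 27.9 FPKM in WT. The part of mating type and marker genes in the results was not tested. The smallest FPKM values fall on steps of single fragments, and those steps put the depth at about 9200000 to 11800000 fragments per library. For the 30 members longer than 230 bp the member with the fewest had about 190 to 1260 fragments per library. COX7, COX9 and ATP15 (183, 180 and 189 bp) are about as short as the fragments themselves, which makes their FPKM unreliable. COX8 and COX12 (237 and 252 bp) are little longer, and their FPKM carry a smaller reserve of the same kind.

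Sequence upstream of the genes is shown first, because the CCAAT box is the feature that most members share. The 300 bases before each start codon were read from the RefSeq R64 genome, which has the sacCer3 coordinates of the tables, and CCAAT was searched on both strands. It was present in 30 of 34 members (88.2%) and in 41.7% of all 6020 upstream regions of that length. CYT1, COR1, COX4 and CYC1 had no exact match. The longer ACCAAT, which contains CCAAT, was present in 17 of 34 members (50%) and in 15.4% of all regions. AGGGG, also searched on both strands, was present in 14 of 34 members (41.2%) and in 22.2% of all. The 45 CCAAT boxes of the 30 members lay 29 to 293 bases before the start codon, with a median of 195 and quartiles of 162 and 227. The windows below show 1 box for each of 15 members from all the complexes, chosen for the letters that follow the box. Each is 41 bases long, reads 5′ to 3′ on the strand that spells CCAAT, has the box in capitals, and gives the distance of the box from the start codon.
NDI1 (chrXIII:30012-30052, minus strand, 227 bases): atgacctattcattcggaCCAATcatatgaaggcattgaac
SDH3 (chrXI:179502-179542, minus strand, 147 bases): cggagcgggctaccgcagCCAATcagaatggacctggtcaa
QCR7 (chrIV:1496707-1496747, minus strand, 181 bases): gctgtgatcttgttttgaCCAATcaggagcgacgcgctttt
QCR9 (chrVII:859661-859701, minus strand, 207 bases): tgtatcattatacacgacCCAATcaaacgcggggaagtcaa
RIP1 (chrV:106995-107035, plus strand, 247 bases): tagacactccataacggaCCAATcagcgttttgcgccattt
COX6 (chrVIII:209401-209441, plus strand, 286 bases): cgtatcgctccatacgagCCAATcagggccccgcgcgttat
COX7 (chrXIII:779267-779307, plus strand, 162 bases): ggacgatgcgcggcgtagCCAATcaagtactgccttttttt
COX9 (chrIV:334521-334561, plus strand, 147 bases): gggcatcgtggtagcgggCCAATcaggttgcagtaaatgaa
COX12 (chrXII:225355-225395, minus strand, 205 bases): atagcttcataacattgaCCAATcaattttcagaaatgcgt
ATP3 (chrII:315362-315402, plus strand, 195 bases): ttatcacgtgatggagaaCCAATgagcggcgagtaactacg
ATP16 (chrIV:442847-442887, plus strand, 164 bases): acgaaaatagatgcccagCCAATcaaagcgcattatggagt
ATP4 (chrXVI:408911-408951, minus strand, 189 bases): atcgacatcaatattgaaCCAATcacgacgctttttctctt
ATP7 (chrXI:408187-408227, plus strand, 220 bases): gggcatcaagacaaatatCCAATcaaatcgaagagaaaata
ATP17 (chrIV:1228364-1228404, plus strand, 229 bases): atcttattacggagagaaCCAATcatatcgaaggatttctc
ATP20 (chrXVI:599683-599723, minus strand, 169 bases): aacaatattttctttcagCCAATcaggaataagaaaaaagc
By the choice made, the box is followed by any base and then A in all 15 windows. This CCAATNA form, looked for after the boxes had been seen, was present in 24 of 34 members (70.6%) and in 14.9% of all upstream regions. Bases 300 to 151 before the start codon are shown for the gene that differed most between media and for CYC1, which had the highest median ratio over the 5 deletions. The box of SDH1 at 255 bases reads ATTGG on the strand of the gene and is in capitals. Its other box, at 35 bases, lies outside the stretch shown, and CYC1 has none.
SDH1 (chrXI:171280-171429, minus strand): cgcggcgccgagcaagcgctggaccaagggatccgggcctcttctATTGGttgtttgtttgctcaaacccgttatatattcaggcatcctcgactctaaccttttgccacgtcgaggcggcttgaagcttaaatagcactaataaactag
CYC1 (chrX:526035-526184, plus strand): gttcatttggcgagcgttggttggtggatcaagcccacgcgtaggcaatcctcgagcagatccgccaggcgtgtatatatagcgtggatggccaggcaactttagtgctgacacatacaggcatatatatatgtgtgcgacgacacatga
A match describes the letters only; an absent match says only that this string is not in this window.

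Ratios below are log2((FPKM + 1)/(FPKM + 1)) within 1 table, deletion over WT or YPD over YPGR, so that 1 stands for a 2-fold difference. WT of experiment 1 is given as a range because the same library was scaled by 0.952 to 1 in its 5 tables. The 5 deletions share that library, so their ratios for a gene are not independent. A gene above or below WT in several of them is therefore not a repeated result. Levels in experiment 2 come from the 2 tables that compare media; the same libraries are scaled slightly differently in the 2 tables that compare strains. FPKM are relative to all transcripts of a culture, so fewer cells of a type and less RNA per cell cannot be told apart.

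Complex II oxidises succinate and also serves the citric acid cycle. SDH1 (YKL148C, chrXI:169207-171129) encodes its flavoprotein, the catalytic subunit. SDH1 had 32.1 FPKM in htl1Δ, 42.6 in npl6Δ, 20.5 in rsc1Δ, 31.7 in rsc2Δ and 25.8 in rtt102Δ, against 37.0 to 38.9 FPKM in WT. SDH1 in experiment 2 had 42.0 FPKM in YPD and 518 in YPGR in the libraries labelled htl1Δ, and 30.6 in YPD and 468 in YPGR in WT. It was the lowest member in every library in YPD, and its ratio was -0.86 in rsc1Δ and -0.53 in rtt102Δ. In YPD over YPGR it had the ratio furthest from 0 of all members, -3.59 in the libraries labelled htl1Δ and -3.89 in WT. SDH2 (YLL041C, chrXII:53131-53931), the iron-sulfur subunit, had 78.8 FPKM in htl1Δ, 99.5 in npl6Δ, 89.4 in rsc1Δ, 116 in rsc2Δ and 107 in rtt102Δ, against 113 to 119 FPKM in WT. SDH2 in experiment 2 had 94.0 FPKM in YPD and 793 in YPGR in the libraries labelled htl1Δ, and 102 in YPD and 722 in YPGR in WT. SDH2 was therefore lower than WT in 4 of the 5 deletions, down to -0.59 in htl1Δ. The membrane anchor genes behaved differently from the catalytic pair in npl6Δ and rsc2Δ. SDH3 (YKL141W, chrXI:179667-180263) had 217 FPKM in htl1Δ, 348 in npl6Δ, 214 in rsc1Δ, 328 in rsc2Δ and 219 in rtt102Δ, against 213 to 224 FPKM in WT. SDH3 in experiment 2 had 229 FPKM in YPD and 1081 in YPGR in the libraries labelled htl1Δ, and 252 in YPD and 1037 in YPGR in WT. Its ratio was 0.65 in npl6Δ and 0.62 in rsc2Δ, and between -0.04 and 0.01 in the other 3 deletions. SDH4 (YDR178W, chrIV:817950-818495) had 184 FPKM in htl1Δ, 222 in npl6Δ, 149 in rsc1Δ, 213 in rsc2Δ and 156 in rtt102Δ, against 160.3 to 168 FPKM in WT. SDH4 in experiment 2 had 162 FPKM in YPD and 943 in YPGR in the libraries labelled htl1Δ, and 179 in YPD and 830.0 in YPGR in WT. Its ratio was 0.41 in npl6Δ and 0.41 in rsc2Δ. NDI1 (YML120C, chrXIII:28266-29807), the matrix-facing NADH dehydrogenase, had 57.5 FPKM in htl1Δ, 62.2 in npl6Δ, 62.8 in rsc1Δ, 79.2 in rsc2Δ and 62.8 in rtt102Δ, against 77.8 to 81.8 FPKM in WT. NDI1 in experiment 2 had 70.0 FPKM in YPD and 481 in YPGR in the libraries labelled htl1Δ, and 54.4 in YPD and 436 in YPGR in WT. NDI1 was below WT in 4 of the 5 deletions, and its median ratio over the 5, -0.34, was the lowest of the members.

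Complex III passes electrons from ubiquinol to cytochrome c. Its redox subunits are cytochrome c1, encoded by CYT1 (YOR065W, chrXV:447439-448368), and the Rieske iron-sulfur protein, encoded by RIP1 (YEL024W, chrV:107260-107907), beside the mitochondrially encoded cytochrome b. CYT1 had 114 FPKM in htl1Δ, 169 in npl6Δ, 124 in rsc1Δ, 128 in rsc2Δ and 82.9 in rtt102Δ, against 91.5 to 96.1 FPKM in WT. CYT1 in experiment 2 had 114 FPKM in YPD and 533 in YPGR in the libraries labelled htl1Δ, and 121 in YPD and 512 in YPGR in WT. CYT1 stood highest in npl6Δ, with a ratio of 0.82. RIP1 had 119 FPKM in htl1Δ, 156 in npl6Δ, 112 in rsc1Δ, 148 in rsc2Δ and 114 in rtt102Δ, against 129 to 135 FPKM in WT. RIP1 in experiment 2 had 135 FPKM in YPD and 783 in YPGR in the libraries labelled htl1Δ, and 128 in YPD and 714 in YPGR in WT. RIP1 ratios in experiment 1 stayed between -0.23 and 0.22, on both sides of 0. The core proteins, which face the matrix, are encoded by COR1 (YBL045C, chrII:134143-135516) and QCR2 (YPR191W, chrXVI:919381-920487). COR1 had 139 FPKM in htl1Δ, 187 in npl6Δ, 156 in rsc1Δ, 169 in rsc2Δ and 133 in rtt102Δ, against 138 to 145 FPKM in WT. COR1 in experiment 2 had 156 FPKM in YPD and 701 in YPGR in the libraries labelled htl1Δ, and 150.0 in YPD and 584 in YPGR in WT. QCR2 had 178 FPKM in htl1Δ, 166 in npl6Δ, 143 in rsc1Δ, 158 in rsc2Δ and 116 in rtt102Δ, against 124 to 129.9 FPKM in WT. Both core genes were above WT in npl6Δ and rsc2Δ, by ratios of 0.38 and 0.29 for COR1 and 0.37 and 0.35 for QCR2. QCR2 in experiment 2 had 207 FPKM in YPD and 709.7 in YPGR in the libraries labelled htl1Δ, and 152 in YPD and 656 in YPGR in WT.

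The small subunits of complex III carry no redox group. QCR6 (YFR033C, chrVI:224326-224769), the acidic hinge protein that contacts cytochrome c1, had 282 FPKM in htl1Δ, 414 in npl6Δ, 326 in rsc1Δ, 288 in rsc2Δ and 314 in rtt102Δ, against 296 to 311 FPKM in WT. QCR6 in experiment 2 had 304 FPKM in YPD and 1378 in YPGR in the libraries labelled htl1Δ, and 360.3 in YPD and 1317 in YPGR in WT. It was the only member of complex III below WT in rsc2Δ, at -0.04. QCR7 (YDR529C, chrIV:1496165-1496548) had 663 FPKM in htl1Δ, 663 in npl6Δ, 488 in rsc1Δ, 724 in rsc2Δ and 475 in rtt102Δ, against 415 to 436 FPKM in WT. QCR7 in experiment 2 had 562 FPKM in YPD and 2542 in YPGR in the libraries labelled htl1Δ, and 525 in YPD and 2492 in YPGR in WT. QCR7 was above WT in all 5 deletions, with ratios from 0.17 in rtt102Δ to 0.80 in rsc2Δ. QCR8 (YJL166W, chrX:106434-106718) had 925 FPKM in htl1Δ, 1250.1 in npl6Δ, 816 in rsc1Δ, 1116 in rsc2Δ and 739.8 in rtt102Δ, against 673 to 707 FPKM in WT. QCR8 in experiment 2 had 954 FPKM in YPD and 3310.4 in YPGR in the libraries labelled htl1Δ, and 852 in YPD and 3300.3 in YPGR in WT. QCR8, too, was above WT in all 5 deletions, highest in npl6Δ at 0.84. QCR9 (YGR183C, chrVII:859063-859476) and QCR10 (YHR001W-A, chrVIII:107826-108122) are the members with 2 coding exons. QCR9 had 1298 FPKM in htl1Δ, 2036 in npl6Δ, 1183 in rsc1Δ, 1609 in rsc2Δ and 1013 in rtt102Δ, against 1069 to 1123 FPKM in WT. QCR9 in experiment 2 had 1522 FPKM in YPD and 5158 in YPGR in the libraries labelled htl1Δ, and 1217 in YPD and 5385 in YPGR in WT. Its ratios of 0.87 in npl6Δ and 0.59 in rsc2Δ stood apart from those of the other 3 deletions, which ran from -0.10 to 0.21. QCR10 had 338 FPKM in htl1Δ, 574 in npl6Δ, 351 in rsc1Δ, 516 in rsc2Δ and 369 in rtt102Δ, against 318 to 335 FPKM in WT. QCR10 in experiment 2 had 263 FPKM in YPD and 2426 in YPGR in the libraries labelled htl1Δ, and 471 in YPD and 2476 in YPGR in WT. QCR10 was at 0.79 in npl6Δ and 0.69 in rsc2Δ, but at -0.85 in the YPD library labelled htl1Δ over WT.

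CYC1 (YJR048W, chrX:526335-526664) encodes iso-1-cytochrome c, the main form of the electron carrier in aerobic cells, and CYC7 (YEL039C, chrV:79636-79977) encodes the minor form. CYC1 had 315 FPKM in htl1Δ, 463 in npl6Δ, 381 in rsc1Δ, 584 in rsc2Δ and 254 in rtt102Δ, against 209 to 219.6 FPKM in WT. CYC1 in experiment 2 had 296 FPKM in YPD and 1046 in YPGR in the libraries labelled htl1Δ, and 203 in YPD and 1272 in YPGR in WT. Every deletion of experiment 1 was above the 1 WT library that they share. The ratios were 0.52 in htl1Δ, 1.09 in npl6Δ, 0.83 in rsc1Δ, 1.48 in rsc2Δ and 0.25 in rtt102Δ. The median over the 5, 0.83, was the highest of the members. In experiment 2 the ratio was 0.53 in the library labelled htl1Δ over WT in YPD and -0.33 in YPGR. CYC7 had 98.4 FPKM in htl1Δ, 102 in npl6Δ, 166 in rsc1Δ, 97.1 in rsc2Δ and 78.2 in rtt102Δ, against 109 to 114 FPKM in WT. CYC7 in experiment 2 had 84.8 FPKM in YPD and 399 in YPGR in the libraries labelled htl1Δ, and 84.7 in YPD and 459 in YPGR in WT. The minor form did not share the pattern of CYC1: its ratio was -0.15 in npl6Δ and -0.17 in rsc2Δ, and its highest was 0.57 in rsc1Δ.

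Complex IV reduces oxygen. Its catalytic core is encoded in the mitochondrion, and the nuclear members encode the subunits around that core. COX4 (YGL187C, chrVII:149704-150171) had 249 FPKM in htl1Δ, 274 in npl6Δ, 188 in rsc1Δ, 259 in rsc2Δ and 200.4 in rtt102Δ, against 202 to 213 FPKM in WT. COX4 in experiment 2 had 266 FPKM in YPD and 1249.5 in YPGR in the libraries labelled htl1Δ, and 253 in YPD and 1195 in YPGR in WT. COX4 ratios in experiment 1 lay between -0.14 and 0.38. COX5A (YNL052W, chrXIV:531725-532186) encodes the aerobic form of the fifth subunit and COX5B (YIL111W, chrIX:155222-155765) the form known from low oxygen. COX5A had 166 FPKM in htl1Δ, 333 in npl6Δ, 266 in rsc1Δ, 347 in rsc2Δ and 253 in rtt102Δ, against 243 to 256 FPKM in WT. COX5A in experiment 2 had 198 FPKM in YPD and 1359 in YPGR in the libraries labelled htl1Δ, and 304 in YPD and 1319.7 in YPGR in WT. COX5A was below WT in htl1Δ at -0.62, and in the YPD library labelled htl1Δ at -0.63. The second of these libraries held HTL1 transcript, and both had high STE2, unlike their WT. The part of HTL1 and of mating type was not tested. COX5B had 179 FPKM in htl1Δ, 349 in npl6Δ, 270.1 in rsc1Δ, 162 in rsc2Δ and 166 in rtt102Δ, against 189 to 198 FPKM in WT. COX5B in experiment 2 had 132 FPKM in YPD and 467 in YPGR in the libraries labelled htl1Δ, and 397 in YPD and 448 in YPGR in WT. The isoforms differed most from each other between media in WT, where the ratio of YPD over YPGR was -2.11 for COX5A and -0.17 for COX5B, whereas in the libraries labelled htl1Δ it was -2.77 and -1.82. COX6 (YHR051W, chrVIII:209705-210151) had 309.7 FPKM in htl1Δ, 492 in npl6Δ, 299 in rsc1Δ, 481 in rsc2Δ and 314 in rtt102Δ, against 299.6 to 315 FPKM in WT. COX6 in experiment 2 had 327 FPKM in YPD and 1220.0 in YPGR in the libraries labelled htl1Δ, and 346 in YPD and 1111 in YPGR in WT. COX6 was above WT by 0.66 in npl6Δ and 0.68 in rsc2Δ, and had ratios of -0.04 to 0.04 in the other 3 deletions.

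COX7, COX8 and COX9 encode small membrane subunits of complex IV. COX7 (YMR256C, chrXIII:778945-779127) had 1065 FPKM in htl1Δ, 1323 in npl6Δ, 837 in rsc1Δ, 1565 in rsc2Δ and 1149.7 in rtt102Δ, against 655 to 689 FPKM in WT. COX7 in experiment 2 had 1001 FPKM in YPD and 4125 in YPGR in the libraries labelled htl1Δ, and 1301 in YPD and 4345 in YPGR in WT. COX7 was above WT in all 5 deletions, including rtt102Δ at 0.78, with the reserve on its length given above. COX8 (YLR395C, chrXII:909729-909965) had 696 FPKM in htl1Δ, 1061 in npl6Δ, 752 in rsc1Δ, 1142 in rsc2Δ and 848 in rtt102Δ, against 731 to 768 FPKM in WT. COX8 in experiment 2 had 609 FPKM in YPD and 2898 in YPGR in the libraries labelled htl1Δ, and 1045 in YPD and 2877 in YPGR in WT. COX8, with a locus of 237 bp, had the smallest difference between media of all members in WT, -1.46, and was at -0.79 in the YPD library labelled htl1Δ over WT. COX9 (YDL067C, chrIV:334217-334396) had 1429 FPKM in htl1Δ, 1624 in npl6Δ, 1646 in rsc1Δ, 2185 in rsc2Δ and 1403 in rtt102Δ, against 1445 to 1518 FPKM in WT. COX9 in experiment 2 had 1292 FPKM in YPD and 7245 in YPGR in the libraries labelled htl1Δ, and 1654 in YPD and 6696 in YPGR in WT. COX9 had the highest FPKM of the members in 7 of the 10 libraries, with the same reserve, and was exceeded by QCR9 and ATP15 in npl6Δ and in the YPD library labelled htl1Δ, and by ATP15 in rsc2Δ. COX12 (YLR038C, chrXII:224921-225172), an assembly-linked subunit that faces the intermembrane space, had 556 FPKM in htl1Δ, 897 in npl6Δ, 316 in rsc1Δ, 914 in rsc2Δ and 552 in rtt102Δ, against 477 to 501 FPKM in WT. COX12 in experiment 2 had 586 FPKM in YPD and 2439 in YPGR in the libraries labelled htl1Δ, and 604 in YPD and 2689.8 in YPGR in WT. COX12 was at 0.86 in npl6Δ and 0.94 in rsc2Δ but at -0.62 in rsc1Δ, where it had about 190 fragments. COX13 (YGL191W, chrVII:144808-145197), which modulates the oxidase, had 265 FPKM in htl1Δ, 488 in npl6Δ, 393 in rsc1Δ, 648 in rsc2Δ and 382 in rtt102Δ, against 357 to 375 FPKM in WT. COX13 in experiment 2 had 275 FPKM in YPD and 1469 in YPGR in the libraries labelled htl1Δ, and 427 in YPD and 1480.2 in YPGR in WT. It was below WT in htl1Δ (-0.50) and in the YPD library labelled htl1Δ (-0.65), with the same limits as for COX5A. In rsc2Δ COX13 was above WT (0.86).

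The F1 part of ATP synthase is a ring of alpha and beta subunits, encoded by ATP1 and ATP2, around a rotating central stalk of gamma, delta and epsilon subunits, encoded by ATP3, ATP16 and ATP15. ATP1 (YBL099W, chrII:36989-38690) had 295 FPKM in htl1Δ, 333 in npl6Δ, 338 in rsc1Δ, 302 in rsc2Δ and 265 in rtt102Δ, against 258 to 271 FPKM in WT. ATP1 in experiment 2 had 317 FPKM in YPD and 1106 in YPGR in the libraries labelled htl1Δ, and 295 in YPD and 933 in YPGR in WT. The whole ATP1 locus is also covered by the row of YBL100C, at 134 to 141 FPKM in WT of experiment 1, and reads of the pair cannot be told apart without strand, on which the sources used here give nothing. ATP2 (YJR121W, chrX:647607-649142) had 610.0 FPKM in htl1Δ, 674 in npl6Δ, 562 in rsc1Δ, 624 in rsc2Δ and 504 in rtt102Δ, against 513 to 539 FPKM in WT. ATP2 in experiment 2 had 664 FPKM in YPD and 2528 in YPGR in the libraries labelled htl1Δ, and 596 in YPD and 2096 in YPGR in WT. Both ring genes stood little above WT in rsc2Δ, at 0.23 and 0.28. ATP3 (YBR039W, chrII:315575-316510) had 280.3 FPKM in htl1Δ, 334 in npl6Δ, 267 in rsc1Δ, 461 in rsc2Δ and 228 in rtt102Δ, against 221 to 232 FPKM in WT. ATP3 in experiment 2 had 318 FPKM in YPD and 979 in YPGR in the libraries labelled htl1Δ, and 265 in YPD and 820.0 in YPGR in WT. ATP16 (YDL004W, chrIV:443029-443511) had 369 FPKM in htl1Δ, 389.8 in npl6Δ, 285 in rsc1Δ, 561 in rsc2Δ and 294 in rtt102Δ, against 267 to 281 FPKM in WT. The central stalk genes were about 2-fold above WT in rsc2Δ, at 1.06 for ATP3 and 1.07 for ATP16. ATP16 in experiment 2 had 389 FPKM in YPD and 1197 in YPGR in the libraries labelled htl1Δ, and 355 in YPD and 1137 in YPGR in WT. ATP15 (YPL271W, chrXVI:30079-30267) had 1369.9 FPKM in htl1Δ, 1823 in npl6Δ, 1256 in rsc1Δ, 2577 in rsc2Δ and 1176 in rtt102Δ, against 1162 to 1221 FPKM in WT. ATP15 in experiment 2 had 1809 FPKM in YPD and 5228 in YPGR in the libraries labelled htl1Δ, and 1550.3 in YPD and 4666 in YPGR in WT. ATP15 was at 1.15 in rsc2Δ, again with the reserve on its length.

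The peripheral stalk holds F1 still against the membrane part. ATP4 (YPL078C, chrXVI:408010-408744), subunit b, had 363 FPKM in htl1Δ, 454 in npl6Δ, 367 in rsc1Δ, 554 in rsc2Δ and 360.0 in rtt102Δ, against 325 to 342 FPKM in WT. ATP4 in experiment 2 had 383 FPKM in YPD and 1264 in YPGR in the libraries labelled htl1Δ, and 409 in YPD and 1222 in YPGR in WT. ATP5 (YDR298C, chrIV:1058176-1058814), the oligomycin sensitivity conferring protein, had 391 FPKM in htl1Δ, 387 in npl6Δ, 379 in rsc1Δ, 487 in rsc2Δ and 320.3 in rtt102Δ, against 284 to 298 FPKM in WT. ATP4 and ATP5 were above WT in all 5 deletions, highest in rsc2Δ at 0.77 and 0.78. ATP5 in experiment 2 had 399 FPKM in YPD and 1331 in YPGR in the libraries labelled htl1Δ, and 362 in YPD and 1205 in YPGR in WT. ATP7 (YKL016C, chrXI:407465-407989), subunit d, had 417 FPKM in htl1Δ, 517 in npl6Δ, 375 in rsc1Δ, 513 in rsc2Δ and 298 in rtt102Δ, against 292 to 306 FPKM in WT. ATP7 in experiment 2 had 411 FPKM in YPD and 1379.6 in YPGR in the libraries labelled htl1Δ, and 374 in YPD and 1271 in YPGR in WT. ATP7 was at 0.77 in npl6Δ and 0.81 in rsc2Δ. In the membrane, ATP17 (YDR377W, chrIV:1228611-1228916) encodes subunit f and ATP20 (YPR020W, chrXVI:599870-600217) subunit g, which takes part in dimer formation. ATP17 had 642 FPKM in htl1Δ, 839.8 in npl6Δ, 583 in rsc1Δ, 846 in rsc2Δ and 567 in rtt102Δ, against 525 to 552 FPKM in WT. ATP17 in experiment 2 had 691 FPKM in YPD and 1957 in YPGR in the libraries labelled htl1Δ, and 615 in YPD and 1857 in YPGR in WT. ATP20 had 160.3 FPKM in htl1Δ, 211 in npl6Δ, 169.7 in rsc1Δ, 353 in rsc2Δ and 237 in rtt102Δ, against 206 to 217 FPKM in WT. ATP20 was the member of this group that stood lowest in htl1Δ (-0.43), rsc1Δ (-0.31) and npl6Δ (-0.02), yet it was at 0.77 in rsc2Δ. ATP20 in experiment 2 had 170.1 FPKM in YPD and 922 in YPGR in the libraries labelled htl1Δ, and 278 in YPD and 909 in YPGR in WT. ATP14 (subunit h) lies in a row with YLR294C (chrXII:721701-722373). That row was at 0.51 in htl1Δ, 0.90 in npl6Δ, 0.68 in rsc1Δ, 0.82 in rsc2Δ and 0.07 in rtt102Δ over WT, and at -1.62 in the libraries labelled htl1Δ and -1.49 in WT for YPD over YPGR; it is not counted below.

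**Figure D1:**
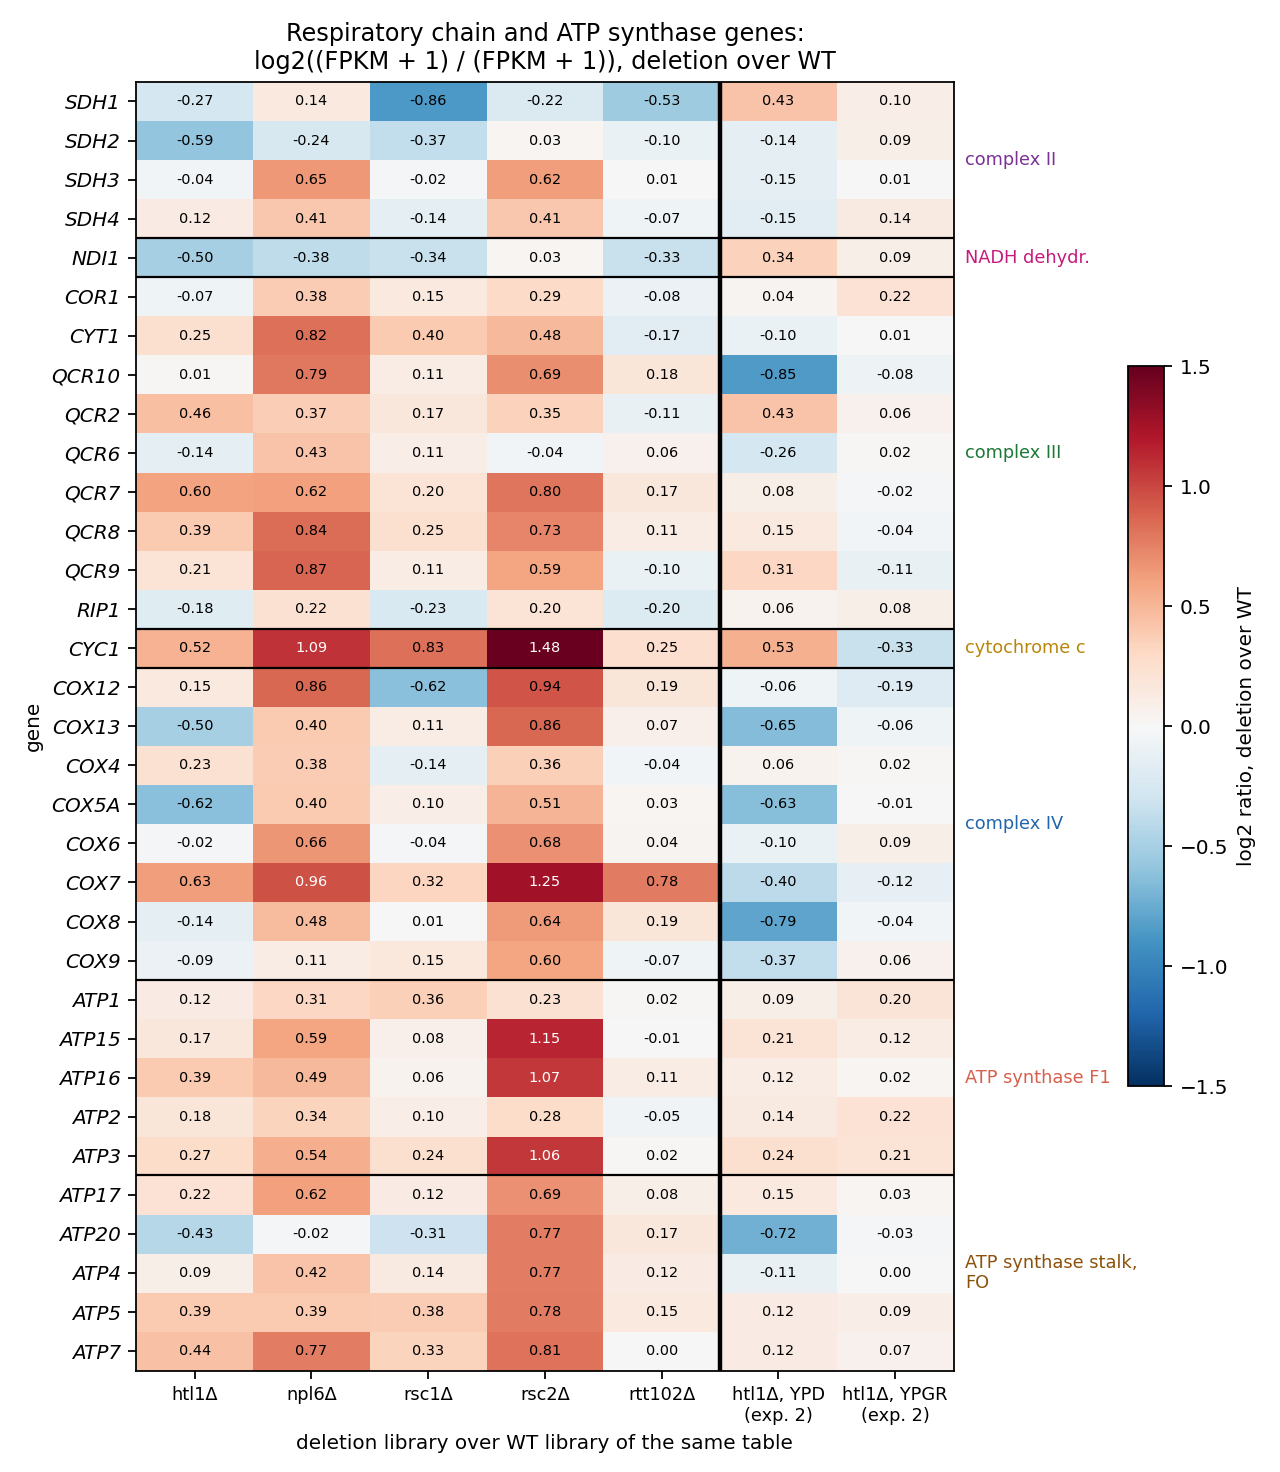
Log2 ratio of FPKM + 1, library labelled as a deletion over WT of the same table, for the 33 genes with a row of their own (rows, grouped by complex). Columns are 5 comparisons of experiment 1 and 2 of experiment 2, separated by a thick line. Both libraries labelled htl1Δ in experiment 2 held HTL1 transcript, near the WT level in YPGR, so these 2 columns cannot be read as a plain deletion. The npl6Δ and rsc2Δ columns are mostly above 0, with CYC1 at 1.09 and 1.48, and the YPGR column of experiment 2 stays between -0.33 and 0.22.

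In rsc2Δ most of the members were higher than in WT. Their median ratio was 0.64 and 31 of 33 were above 0, beside 50.1% of all genes measured (at least 5 FPKM in 1 of the 2 libraries). At least 1.5-fold higher were 20 of the 33, beside 9.82% of all genes, and 0 were at least 1.5-fold lower, beside 9.16%. At least 2-fold higher were 5 members, CYC1, COX7, ATP15, ATP16 and ATP3, beside 3.74% of all genes. Among genes with at least 100 FPKM in 1 of the libraries the median was 0.10 over 2121 genes and 0.68 over 31 members, so the members also stood above genes of high level. STE2 was at 343 FPKM in rsc2Δ and 6.29 FPKM in WT, and the marker gene LYS2 at 0.107 FPKM in rsc2Δ and 26.6 FPKM in WT. In npl6Δ STE2 was under 7 FPKM as in WT, but MET17 was listed at 0, against 153 FPKM in WT. The part of mating type and of the marker genes was not tested.

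The complexes did not share the difference evenly in rsc2Δ. ATP synthase had 8 of its 10 measured genes at least 1.5-fold higher (median 0.77, range 0.23 to 1.15) and complex IV 6 of 8 (median 0.66, range 0.36 to 1.25). Complex III had 4 of 9 (median 0.48, range -0.04 to 0.80), complex II 1 of 4 (median 0.22, range -0.22 to 0.62), and NDI1 was at 0.03. Within F1 the central stalk genes lay between 1.06 and 1.15 and the ring genes at 0.23 and 0.28, whereas the 5 stalk and FO genes lay within 0.69 to 0.81. Length runs with this contrast: ATP1 and ATP2 have loci of 1702 and 1536 bp, while ATP3, ATP16 and ATP15 have 936, 483 and 189 bp, and the highest of the 6 members over 1000 bp was at 0.35. Centred on the median of all genes of their length class, the central stalk genes were at 0.97 for ATP3, 0.98 for ATP16 and 0.89 for ATP15, and the ring genes at 0.29 for ATP1 and 0.34 for ATP2. The part of length in the contrast was not tested further.

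**Figure D2:**
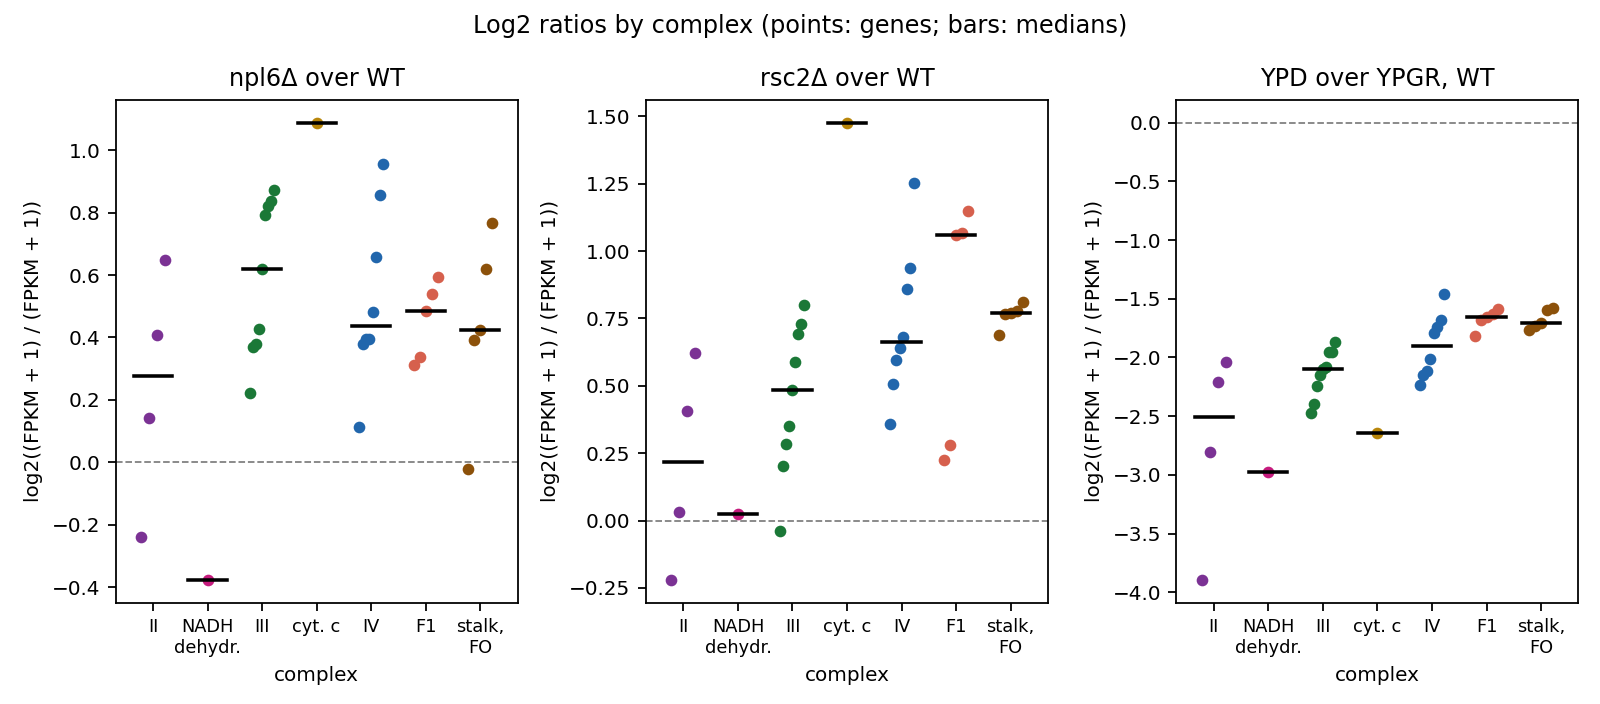
Log2 ratio of FPKM + 1 (vertical axis) of each gene (points) by complex (horizontal axis), with the median of each complex as a bar, for npl6Δ over WT, rsc2Δ over WT and YPD over YPGR in WT. In rsc2Δ the medians of groups with several genes run from 0.22 in complex II to 1.06 in F1, and the single genes NDI1 and CYC1 are at 0.03 and 1.48. Between media complex II has a median of -2.51 and ATP synthase lies between -1.81 and -1.58.

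Short loci were higher in rsc2Δ in general, and many members are short. Over all genes the median ratio was 0.26 for 570 loci up to 400 bp, 0.09 for 1796 loci over 400 and up to 1000 bp and -0.06 for 3681 loci over 1000 bp. The members had medians of 0.79, 0.59 and 0.25 in the same classes, and 12 of 12, 13 of 15 and 5 of 6 of them were above the median of their class. With each ratio centred on its length class, a comparison chosen after the data had been seen, 11 of 33 members were at least 1.5-fold higher, beside 8.9% of all genes, and their median was 0.43. Without centring but with loci under 400 bp left out, 8 of 21 members were at least 1.5-fold higher, beside 7.76% of all genes, and their median was 0.41. The part of length in the result was not tested beyond these values.

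**Figure D3:**
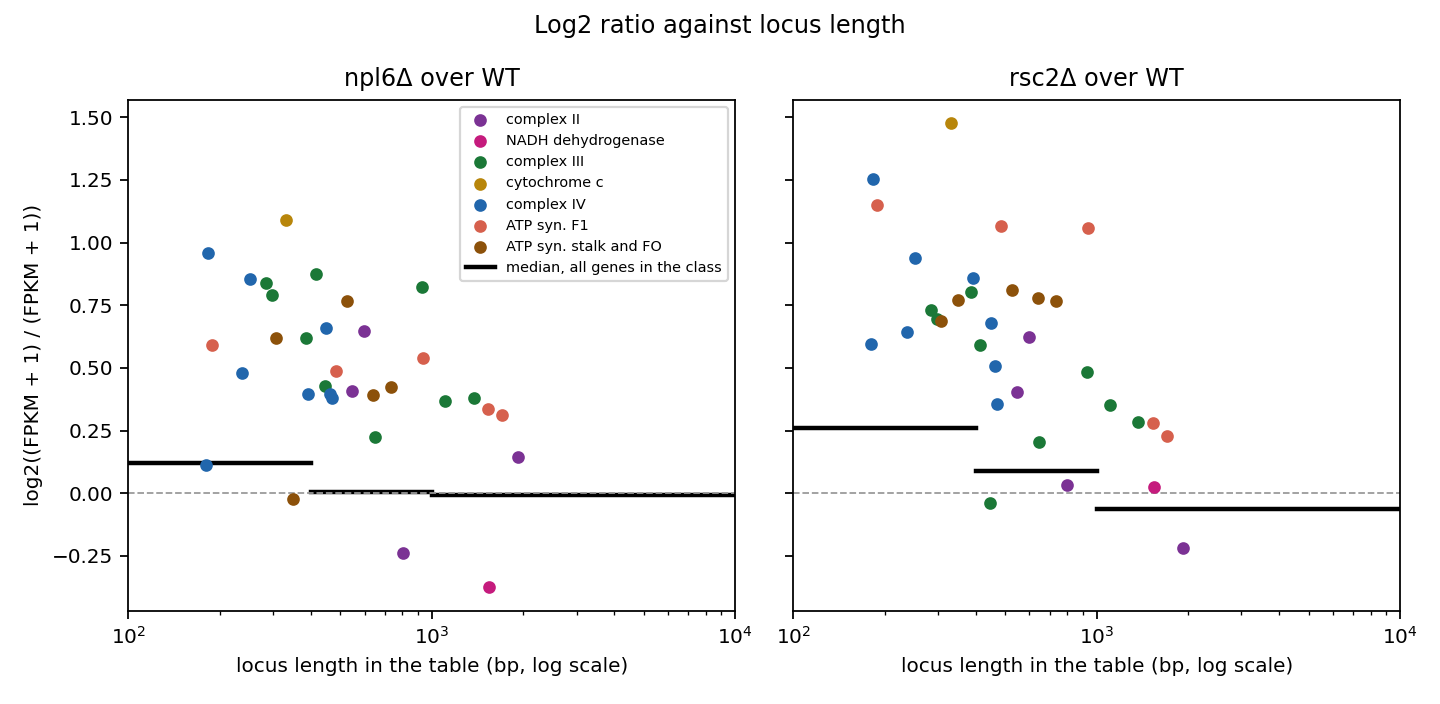
Log2 ratio of FPKM + 1 (vertical axis) against the length of the locus in base pairs (horizontal log axis) for npl6Δ over WT and rsc2Δ over WT. Points are the 33 genes, coloured by complex, and black bars are the medians of all measured genes up to 400 bp, over 400 to 1000 bp and over 1000 bp; in rsc2Δ these bars step down from 0.26 to -0.06, and all 12 members up to 400 bp lie above their bar.

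In npl6Δ the members were also mostly higher than in WT, with complex III first. The median ratio was 0.43 and 30 of 33 were above 0, beside 50.5% of all genes. At least 1.5-fold higher were 13 of 33, beside 12.2% of all genes, and 0 were lower by that much, beside 10.9%. CYC1 was the 1 member at least 2-fold higher, beside 4.63% of all genes. Complex III had 5 of its 9 genes at least 1.5-fold higher (median 0.62), complex IV 3 of 8 (0.44), ATP synthase 3 of 10 (0.46) and complex II 1 of 4 (0.28), while NDI1 was at -0.38. All genes had a median of 0.12 up to 400 bp and within 0.01 of 0 in the longer classes, and with loci under 400 bp left out 5 of 21 members were at least 1.5-fold higher, beside 11% of all genes. The rsc2Δ and npl6Δ comparisons use the same WT library, so their counts are not independent of each other.

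The other 3 deletions of experiment 1 had medians close to 0. In htl1Δ the median was 0.12 and 20 of 33 were above 0, beside 50% of all genes. COX7 and QCR7 were at least 1.5-fold higher, beside 10.6% of all genes, and COX5A and SDH2 at least 1.5-fold lower, beside 8.34%. All 5 measured F1 genes were above WT by 0.12 to 0.39. In rsc1Δ, which lacks the paralog of Rsc2, the median was 0.11 and 23 of 33 were above 0, beside 50.5% of all genes. CYC1 was at least 1.5-fold higher, beside 5.48%, and SDH1 and COX12 at least 1.5-fold lower, beside 5.98%; all 4 genes of complex II were below 0. In rtt102Δ the median was 0.02 and 20 of 33 were above 0, beside 50.9% of all genes. COX7 was at least 1.5-fold higher, beside 2.67%, and 0 members were lower by that much, beside 3.26%. With rtt102Δ in place of WT as the control, the ratio of COX7 in htl1Δ turned to -0.15.

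Some small subunits were lower in the YPD library labelled htl1Δ than in WT of experiment 2. The median was 0.06 and 18 of 33 were above 0, beside 48.9% of all genes. At least 1.5-fold lower were 5 of 33, beside 6.05%, and 0 were higher, beside 8.53%. QCR10 had 253 FPKM in the library labelled htl1Δ and 457 FPKM in WT (-0.85). COX8 had 584 FPKM in the labelled htl1Δ library and 1014 FPKM in WT (-0.79), and ATP20 had 163 FPKM in the labelled htl1Δ library and 270.2 FPKM in WT (-0.72). The other 2, COX13 and COX5A, belong to complex IV like COX8. COX13 had 264 FPKM in the labelled htl1Δ library and 414 FPKM in WT (-0.65), and COX5A had 189.8 FPKM in the labelled htl1Δ library and 295 FPKM in WT (-0.63). Of these 5 loci COX5A, with 462 bp, is the one over 400 bp. The labelled htl1Δ library also had STE2 at 575 FPKM, against 6.29 FPKM in WT, and MET17 at 145 FPKM, listed at 0 in WT, and their part in the result was not tested. Complex IV as a whole had a median of -0.38, with 7 of 8 genes below 0, and F1 one of 0.14, with 5 of 5 above 0. The members' ratios in this comparison and in htl1Δ over WT of experiment 1, which share no library, had a Pearson r of 0.45 and a Spearman rho of 0.45 over 33 genes that each time share 1 pair of libraries, and 27 differed by less than 0.5. COX7 differed most, at 0.63 in experiment 1 and -0.40 in experiment 2. In YPGR, where the labelled htl1Δ library held HTL1 near the WT level, the members hardly differed between that library and WT. Their ratios ran from -0.33 for CYC1 to 0.22, with a median of 0.02 and 21 of 33 above 0, beside 49.3% of all genes, and 0 were at least 1.5-fold higher or lower, beside 1.72% and 2.34%.

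Every member was lower in YPD than in YPGR, both in the libraries labelled htl1Δ and in WT. The first of these pairs includes the YPD library of the other mating type and the WT pair does not. In the libraries labelled htl1Δ, 33 of 33 were at least 1.5-fold lower, beside 24.2% of all genes, and 0 were higher, beside 25.6%. The same 33 were also at least 2-fold lower, beside 13.1%, with a median ratio of -2.16 and a range of -3.59 to -1.50. In WT 33 of 33 were at least 1.5-fold lower, beside 22.9% of all genes, and 0 were higher, beside 25.4%. All 33 were also at least 2-fold lower, beside 12.9%, with a median of -1.95 and a range of -3.89 to -1.46. Summed over the 30 members longer than 230 bp, the level was 11115 FPKM in YPD and 45699 FPKM in YPGR in the libraries labelled htl1Δ, and 11322 FPKM in YPD and 44324 FPKM in YPGR in WT. By length, members up to 400 bp and members over 1000 bp had medians of -2.12 and -2.04 in the libraries labelled htl1Δ and of -1.87 and -2.03 in WT.

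**Figure D4:**
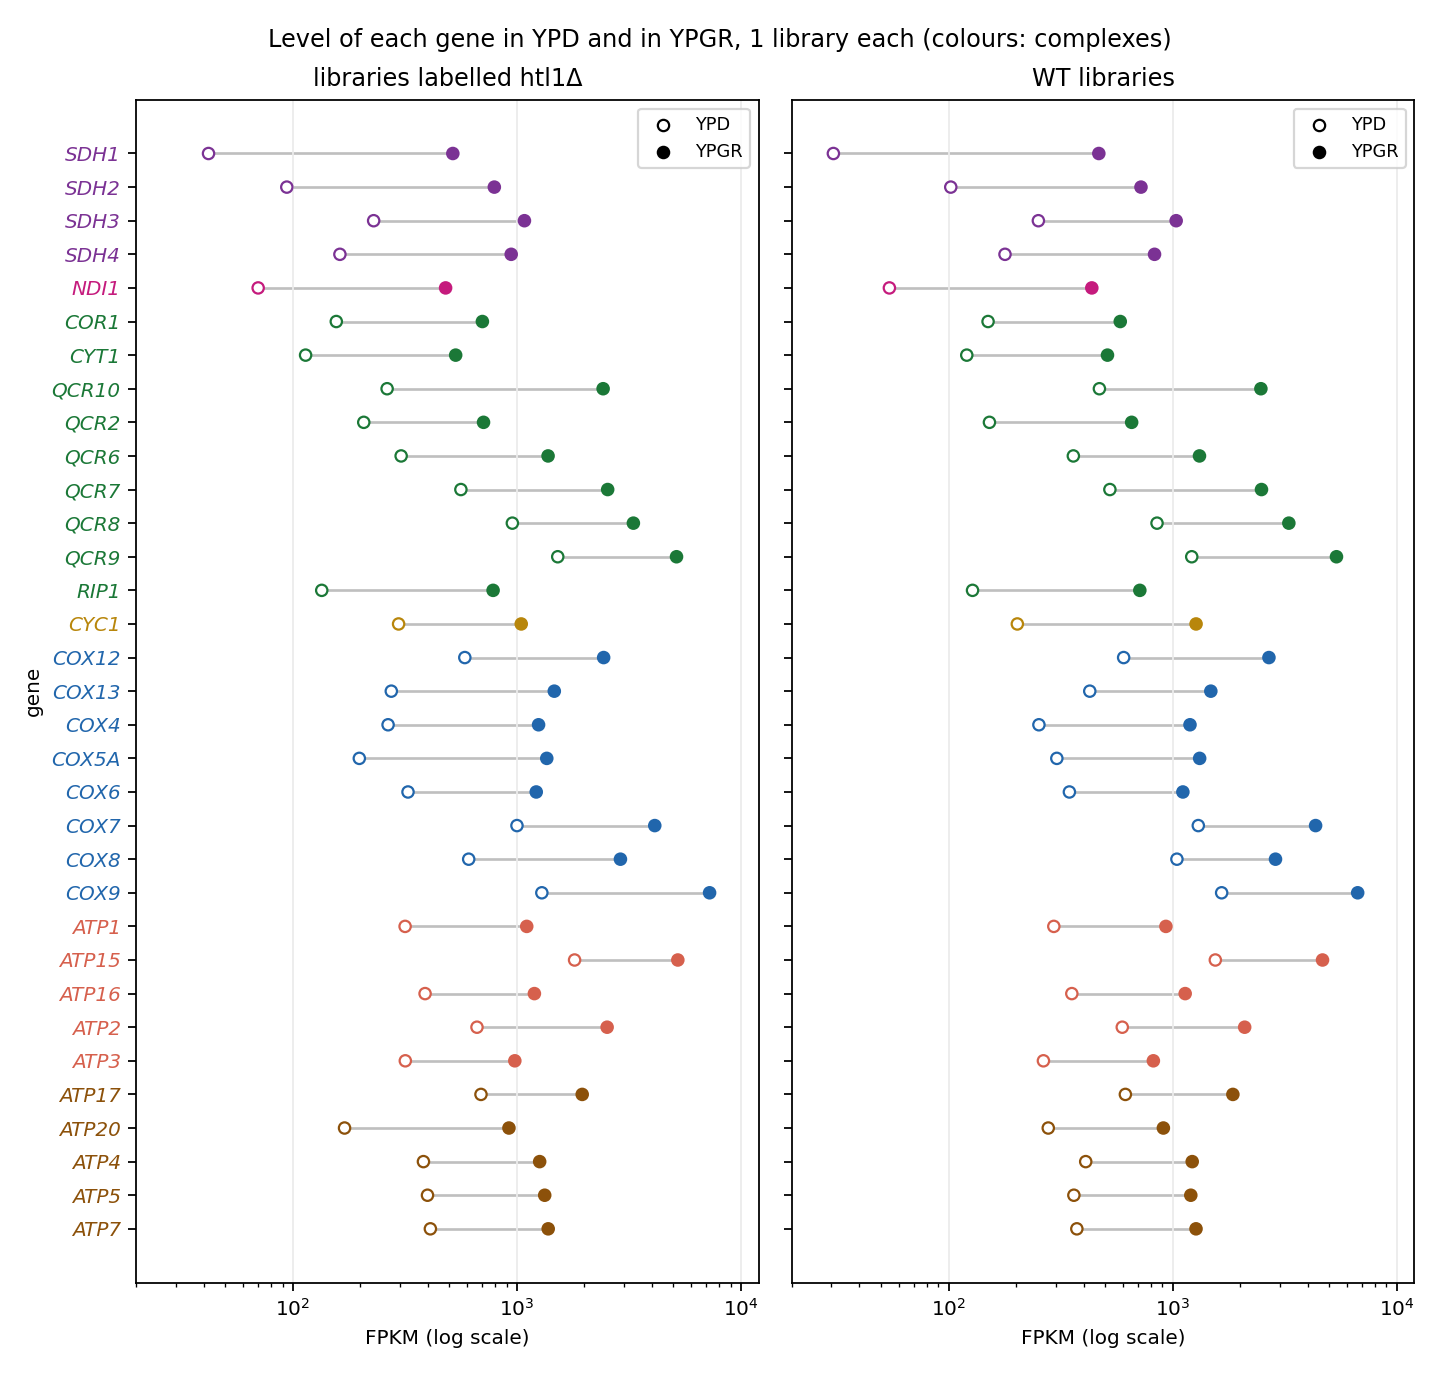
FPKM of each of the 33 genes (rows, coloured by complex; log axis) in YPD (open circles) and YPGR (filled circles), in the libraries labelled htl1Δ and in WT, 1 library each. Every open circle lies left of its filled circle; the longest line belongs to SDH1, at 30.6 FPKM in YPD and 468 FPKM in YPGR in WT.

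The complexes differed between media by unequal amounts. Among those with several genes ATP synthase had the median nearest 0, -1.73 in the libraries labelled htl1Δ and -1.67 in WT, with ranges of -2.43 to -1.50 in the libraries labelled htl1Δ and -1.81 to -1.58 in WT over its 10 genes. ATP20, at -2.43 in the libraries labelled htl1Δ, lay beyond the medians of complexes III and IV there. Complex II had the median furthest from 0, -2.80 in the libraries labelled htl1Δ and -2.51 in WT, with SDH1 and SDH2 further from 0 than SDH3 and SDH4 in both. Complex III was at -2.17 in the libraries labelled htl1Δ and -2.10 in WT, and complex IV was at -2.24 in the libraries labelled htl1Δ and -1.90 in WT. NDI1 was at -2.76 in the libraries labelled htl1Δ and -2.98 in WT. The ratios of the 2 pairs of libraries, which share none, and had a Pearson r of 0.74 and a Spearman rho of 0.65 over the 33 genes, with 27 within 0.5 of each other. CYC1 differed most, at -1.81 in the libraries labelled htl1Δ and -2.64 in WT, followed by QCR10, at -3.20 in the libraries labelled htl1Δ and -2.39 in WT. The 5 genes lower in the YPD library labelled htl1Δ, QCR10, COX8, ATP20, COX5A and COX13, were the 5 with the most negative difference. Both YPD libraries enter both comparisons, so this is not a separate result.

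**Figure D5:**
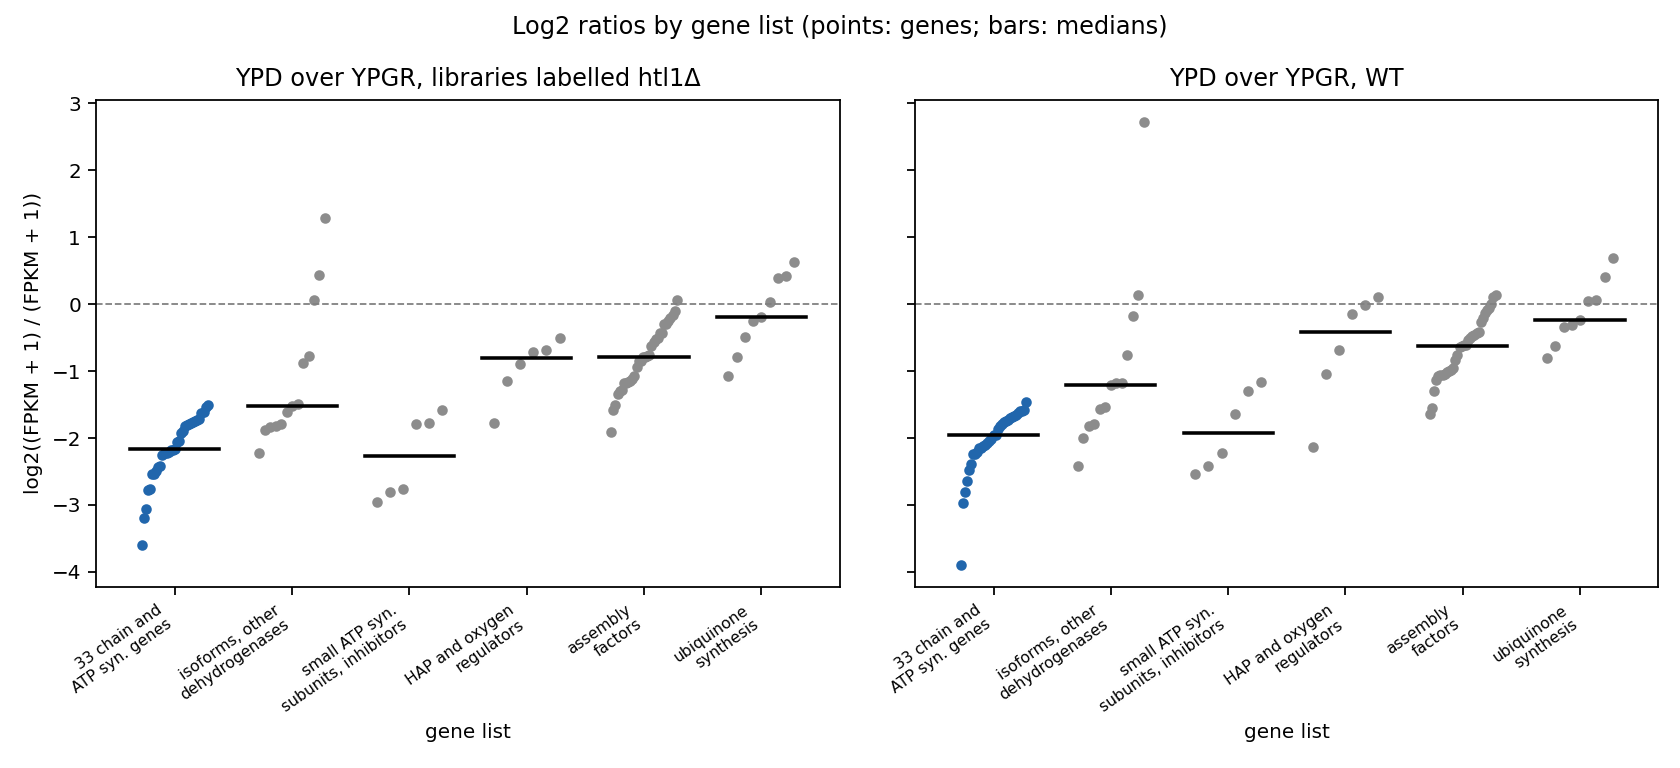
Log2 ratio of FPKM + 1, YPD over YPGR (vertical axis), of the 33 genes (blue) and of 5 other lists of the pathway (grey), in the libraries labelled htl1Δ and in WT, with medians as bars. All blue points lie at or below -1.46, the assembly factors have medians of -0.79 in the libraries labelled htl1Δ and -0.62 in WT, and AAC3 is the highest grey point, at 1.29 in the libraries labelled htl1Δ and 2.72 in WT.

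Assembly factors and ubiquinone synthesis genes had medians nearer 0 between media than the members. Of 32 measured assembly factors 12 were at least 2-fold lower in YPD in the libraries labelled htl1Δ, beside 13.1% of all genes, with a median of -0.79. In WT 9 were, beside 12.9%, with a median of -0.62. In the libraries labelled htl1Δ the furthest from 0 were SDH6, for complex II, at -1.91, COX20, for complex IV, at -1.58, COX15, which works in haem A synthesis, at -1.51 and CBP4, for complex III, at -1.35. In WT they were SDH6 at -1.64, COX20 at -1.55, CBP4 at -1.29 and SHY1, for complex IV, at -1.13. The 9 measured genes of ubiquinone synthesis had medians of -0.19 in the libraries labelled htl1Δ and -0.23 in WT, with COQ4 at -1.08 in the libraries labelled htl1Δ and -0.80 in WT. The small ATP synthase subunits and inhibitors went with the members: 6 of 6 were at least 2-fold lower in both pairs of libraries, with medians of -2.27 in the libraries labelled htl1Δ and -1.93 in WT. INH1, the F1 inhibitor gene, had 269.9 FPKM in YPD and 2094 in YPGR in the libraries labelled htl1Δ, and 321 in YPD and 1869.5 in YPGR in WT. In the libraries labelled htl1Δ INH1 was at -2.95, STF2 at -2.81, STF1 at -2.76 and the dimerisation subunit gene TIM11 at -1.79. In WT INH1 was at -2.54, STF2 at -2.41, STF1 at -2.23 and TIM11 at -1.64. Porin and the phosphate carrier were lower too: POR1, of the outer membrane, was at -1.85 in the libraries labelled htl1Δ and -1.91 in WT, and MIR1 was at -1.04 in the libraries labelled htl1Δ and -0.99 in WT.

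Alternative dehydrogenases and isoforms were mixed. The external NADH dehydrogenase genes NDE1 and NDE2 were at -0.87 and -1.61 in the libraries labelled htl1Δ and -1.54 and -1.78 in WT, and the glycerol 3-phosphate dehydrogenase gene GUT2 was at -1.52 in the libraries labelled htl1Δ and -1.81 in WT. The lactate dehydrogenase genes CYB2 and DLD1 were at -1.79 and -1.88 in the libraries labelled htl1Δ and -2.00 and -1.57 in WT. The ADP/ATP carrier genes split: PET9, the main form, was at -1.83 in the libraries labelled htl1Δ and -1.18 in WT, and AAC1 was at -1.49 in the libraries labelled htl1Δ and -1.21 in WT. AAC3, known from anaerobic growth, was higher in YPD, with 30.2 FPKM in YPD and 11.8 in YPGR in the libraries labelled htl1Δ, and 64.5 in YPD and 8.91 in YPGR in WT. The complex II paralogs SHH3, SHH4 and YJL045W were at 0.06, -0.77 and 0.43 in the libraries labelled htl1Δ and 0.13, -1.18 and -0.75 in WT. In experiment 1, 3 of the 11 measured genes of this list were at least 1.5-fold higher in npl6Δ, beside 12.2% of all genes. They were COX5B (0.83), AAC3 (0.71) and DLD1 (0.59). In rsc2Δ 0 of 11 were, beside 9.82%. GUT2 was at -0.69 in htl1Δ and -0.63 in rtt102Δ. Over the same 5 deletions NDE1 ran from 0.02 in npl6Δ to 0.40 in rsc2Δ, CYB2 from -0.50 in htl1Δ to 0.34 in rsc2Δ, PET9 from -0.03 in rtt102Δ to 0.45 in rsc2Δ and AAC1 from -0.19 in rtt102Δ to 0.29 in npl6Δ. SHH3 ran from -0.48 in npl6Δ to 0.27 in htl1Δ and SHH4 from -0.58 in rsc1Δ to -0.03 in htl1Δ, so that none of these 6 was at least 1.5-fold higher or lower. NDE2 was below 5 FPKM in every library of experiment 1, and YJL045W in all but htl1Δ. In the library labelled htl1Δ in YPD over WT, COX5B was at -1.60, AAC3 at -1.09, YJL045W at 1.08 and NDE1 at 0.75.

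Among the regulators HAP4, the activating subunit of the CCAAT-binding complex, stood apart between media. HAP4 (YKL109W, chrXI:232227-233891) had 137 FPKM in YPD and 473 in YPGR in the libraries labelled htl1Δ, and 96.4 in YPD and 425 in YPGR in WT. In experiment 1 HAP4 had 126 FPKM in htl1Δ, 71.7 in npl6Δ, 150.1 in rsc1Δ, 214 in rsc2Δ and 116 in rtt102Δ, against 143 to 150.4 FPKM in WT. The deletions with the highest members differed here: HAP4 was at -1.04 in npl6Δ and at 0.58 in rsc2Δ. For YPD over YPGR in the libraries labelled htl1Δ, HAP4 was at -1.78, HAP5 at -1.15, HAP2 at -0.89, HAP3 at -0.50 and the haem-responsive HAP1 at -0.71. For YPD over YPGR in WT, HAP4 was at -2.13, HAP5 at -1.05, HAP2 at -0.69, HAP3 at -0.14 and HAP1 at -0.01. Over the 5 deletions of experiment 1 these other subunits and HAP1 stayed within 0.5 of WT: HAP1 ran from -0.47 in rsc2Δ to 0.18 in npl6Δ, HAP2 from -0.41 in npl6Δ to 0.24 in rsc1Δ, HAP3 from -0.20 in htl1Δ to 0.26 in rtt102Δ and HAP5 from -0.27 in rsc1Δ to 0.22 in rsc2Δ. ROX1 (YPR065W, chrXVI:679693-680799), a repressor of genes used at low oxygen such as COX5B and AAC3, had 239.8 FPKM in htl1Δ, 349 in npl6Δ, 180.0 in rsc1Δ, 203 in rsc2Δ and 120.2 in rtt102Δ, against 88.0 to 92.4 FPKM in WT. ROX1 in experiment 2 had 78.6 FPKM in YPD and 127 in YPGR in the libraries labelled htl1Δ, and 147 in YPD and 137 in YPGR in WT. It was above WT in all 5 deletions, by 1.37 in htl1Δ and 1.92 in npl6Δ, but at -0.91 in the YPD library labelled htl1Δ over WT.

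Other pathway genes of the deletions included some that went with the members and some that did not. Of the 6 small ATP synthase subunits and inhibitors 4 were at least 1.5-fold higher in npl6Δ (median 0.67), beside 12.2% of all genes. In rsc2Δ 3 were (median 0.72), beside 9.82%. STF2 was at -0.70 in npl6Δ and -0.10 in rsc2Δ, and TIM11 at 0.03 and 0.05. All 6 loci are under 400 bp, and over all genes loci up to 400 bp had a median of 0.26 in rsc2Δ. INH1 had 298 FPKM in htl1Δ, 419 in npl6Δ, 395 in rsc1Δ, 379 in rsc2Δ and 149 in rtt102Δ, against 169 to 177 FPKM in WT. ATP18, a small FO subunit gene with a locus of 180 bp, was at 1.01 in rsc2Δ, and STF2 was at -1.15 in htl1Δ. Assembly factors had medians of -0.02 in npl6Δ and 0.02 in rsc2Δ, with SDH6 at 1.23 in npl6Δ and ATP11, a chaperone of F1 assembly, at -1.01 in rsc2Δ. In rsc2Δ 5 of the 32 measured assembly factors were at least 1.5-fold lower, beside 9.16% of all genes, and 1 was higher, beside 9.82%. Ubiquinone synthesis genes had medians of -0.02 in npl6Δ and -0.23 in rsc2Δ. In rsc2Δ 8 of the 9 measured were below 0, where 50.1% of all genes were above 0, and 2 were at least 1.5-fold lower, beside 9.16%. POR1 was at 1.03 in npl6Δ and 0.45 in rsc2Δ. Mitochondrially encoded subunits can hardly be followed in polyadenylated RNA: OLI1, ATP synthase subunit c, was at 6.82 FPKM in htl1Δ, at 7.44 FPKM in rsc2Δ, listed at 0 in WT of experiment 1 and under 5 FPKM in the other libraries, and COX3 and ATP6 were at 0.332 FPKM or less.

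The authors' deposited table for each comparison gives a Cuffdiff p-value and q-value between 2 single libraries, which compares those libraries and not the strains. Significance was called for 0 of the 33 members in any of the authors' deposited tables, although between media 20 had an unadjusted p under 0.05 in the libraries labelled htl1Δ, beside 6.87% of all rows with status OK, and 17 in WT, beside 7.19%. The smallest values in the authors' deposited tables were those of SDH1 between media, with p = 0.0015 and q = 0.203 in the libraries labelled htl1Δ and p = 0.00095 and q = 0.221 in WT. In rsc2Δ over WT 7 members had p under 0.05 in the authors' deposited table, beside 4.09% of all rows, led by CYC1 with p = 0.0021 and q = 0.271. The other counts in the authors' deposited tables were 0 in htl1Δ (beside 4.49% of all rows), 1 in npl6Δ (4.96%), 2 in rsc1Δ (3.51%) and 1 in rtt102Δ (2.17%) of experiment 1. They were 0 in both comparisons of a library labelled htl1Δ with WT in experiment 2 (3.95% in YPD and 1.22% in YPGR). For orientation, the authors' deposited tables called 27 genes significant over all rows in rsc2Δ over WT and 7 between media in WT.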

How the data were processed

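RNA of 10 yeast cultures had been extracted with a RiboPure-Yeast kit, captured with oligo-dT and read on an Illumina HiSeq instrument, per the labels. TopHat, Cufflinks and Cuffdiff with the sacCer3 build are named in the submitters' processing notes, without versions. The deposited tables hold FPKM values made by the authors for 2 libraries each, and the authors' log2 ratio, p-value and q-value; on strand and fragment filters the sources used here give nothing.

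Rows naming several genes (115 of 6931 per table) were left out. A gene counted as measured where its row had the status OK and either library reached 5 FPKM. Ratios were log2 of FPKM plus a pseudocount of 1, which understates differences of low genes. With 1 library a group, thresholds of 1.5-fold and 2-fold were used and no test was run. Shares of all measured genes past the same threshold stand beside the counts over all members, and for the alternatives only in npl6Δ and rsc2Δ. Median, range and counts were taken per complex. The members and lists were chosen with earlier results of these data known. Levels in every library are given for the members, COX5B, CYC7, HAP4 and ROX1; other isoforms and regulators are given by their ratios or the range of these, and in longer lists up to 4 genes per comparison at least 2-fold different, largest first; 1.5-fold examples outside that rule were chosen after their values were seen. Depth comes from the spacing of the smallest FPKM values, of which 78.8 to 92.3% per library came out whole after a length offset of 176 to 204 bp. Upstream sequence came from RefSeq R64, in which 5351 of 5825 genes compared had the coordinates of the tables.

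Alternatives were pseudocounts of 0.1 and 10, no level filter or 20 FPKM, any status, centring on the median of all genes, keeping rows of several genes, leaving out loci under 400 bp and rtt102Δ as the control; centring within length classes and the CCAATNA form were later additions, made with the data seen. Counting code was checked on simulated tables. Python 3.11.15, pandas 2.3.3, NumPy 2.4.6, Biopython 1.88 and matplotlib 3.10.9 were used.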

Additional observations from a re-analysis of the deposited data

Results flagged for a closer look

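ROX1, the repressor of genes used at low oxygen, differed in opposite directions between the 2 comparisons of htl1Δ with WT in YPD. Its log2 ratio was 1.37 in experiment 1, where htl1Δ had 239.8 FPKM of ROX1 and WT 92.4 FPKM. The ratio was -0.91 in experiment 2, where ROX1 had 75.4 FPKM in the library labelled htl1Δ, against 143 FPKM in WT. Each direction rests on 1 library a group, so the difference was not tested. HTL1 itself had 2.09 FPKM in htl1Δ of experiment 1, and 232 FPKM in the YPD library labelled htl1Δ of experiment 2.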

How the results depend on the processing

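No paired analysis was possible because each group has 1 library; for the same reason none could be left out. Over all the alternatives, 156 medians and counts stayed close (medians within 0.1, counts within 1.5-fold) and 14 moved; none of the 14 came from the pseudocount, the level filter, the status filter, centring on all genes or the rows of several genes. Those 14 came from short loci, from length and from the control library. With loci under 400 bp left out, 21 of the 33 members remained, which by itself lowers the counts. The count past 1.5-fold was 2 in htl1Δ (4 with them), 5 in npl6Δ (13), 1 in rsc1Δ (3) and 8 in rsc2Δ (20). It was 0 in rtt102Δ (1) and 1 in the YPD library labelled htl1Δ (5). In either comparison of media it was 21 of 21 (33 of 33), so only the number of members changed there. Of all genes without short loci, 11% in npl6Δ and 7.76% in rsc2Δ were at least 1.5-fold higher. No such share is given for the other comparisons. The median in rsc2Δ was 0.41. Centred within length classes, the count was 2 in htl1Δ and 11 in rsc2Δ, the latter beside 8.9% of all genes, with a median of 0.43 in rsc2Δ. With rtt102Δ as the control, the count was 2 in htl1Δ and 1 in rsc1Δ. The ratio of COX7 in htl1Δ was then -0.15, against 0.63 with WT. Of ratios of single members 1184 stayed within 0.1, 135 moved further and 1 turned round. Most moves came from 2 settings. With rtt102Δ as the control 67 ratios moved, 1 turned round and 64 stayed, and centring within length classes moved 60 and left 237. The FPKM of COX7, COX9 and ATP15 are the least reliable, and a single library limits every value.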

Other observations

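Members with CCAATNA in the 300 bases before the start codon (23 measured genes) and members without it (10) had unlike median ratios in some comparisons and close ones in others. The gap was widest in rsc2Δ over WT, at 0.73 with the string and 0.32 without it. In npl6Δ over WT the medians were 0.54 with and 0.38 without, and in rtt102Δ over WT 0.07 with and -0.06 without. The order was the other way in htl1Δ over WT, at 0.09 with and 0.15 without, and in rsc1Δ over WT, at 0.11 with and 0.13 without. For the library labelled htl1Δ over WT the medians were -0.06 with and 0.07 without in YPD, and 0.01 with and 0.08 without in YPGR. Between media they were -2.06 with and -2.17 without in the libraries labelled htl1Δ, and -1.79 with and -2.09 without in WT. The string was chosen after the data had been seen, so no test was made, and neither the length of the loci nor the complex was held equal between those genes. Length runs with the split: of the members over 1000 bp, SDH1, COR1, QCR2, ATP1 and ATP2 lack the string and NDI1 has it. In rsc2Δ members over 1000 bp had a median of 0.25, and members up to 400 bp had one of 0.79. The part of length in the gap was not tested.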
